A study of Mus musculus with 11 samples.

Results

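Islet RNA of 11 mouse libraries was examined for 10 genes that carry a cell into and through mitosis, and these genes were chosen by name among the 55536 genes measured. They were the transcription factor genes Foxm1 and Mybl2, the cyclin genes Ccna2, Ccnb1 and Ccnb2, the kinase genes Cdk1, Plk1, Aurka and Aurkb, and Cdc20, and each matched 1 gene of the count tables. The libraries came from wild type C57BL/6J females that entered the study at 9 weeks of age. Untreated mice gave 2 libraries with the virgin label and 2 with the multipara label. Mice given S-961, a peptide antagonist of the insulin receptor, into the peritoneum for 3 days gave 3 and 4 libraries with these labels. Mice of the multipara groups had given birth 3 times in a row and were studied 3 weeks after the last delivery, and the virgin mice were their littermates. Whole islets were used, which hold endocrine cells together with vessel, stromal and blood cells. The S-961 libraries equal in number the mice of each group, and for the untreated libraries the number of mice is not given in the sources used here.

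FoxM1 and B-MYB, the product of Mybl2, are transcription factors of dividing cells. B-MYB joins the MuvB protein complex on genes of the G2 and M phases, FoxM1 is recruited there later, and both raise the transcription of mitotic cyclins, kinases and spindle genes. In resting cells the same MuvB complex sits on these genes together with pocket proteins and E2F factors as the DREAM repressor. Adult beta cells divide rarely, and blocking the insulin receptor is a known way to make more of them enter the cell cycle. FoxM1 is known to be needed for the growth of beta cell mass in adult and pregnant mice.

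The promoters of such genes are known for CCAAT boxes, which bind NF-Y, placed upstream of a cell cycle homology region that binds MuvB. RefSeq promoter windows of GRCm38.p6, from 250 bases before to 50 after each start, were at hand for 7 of the 10 members, and those of Foxm1, Ccna2 and Aurkb were not used here. The stretch from 130 bases before to 10 bases after the start is shown for 3 members with large differences between the S-961 groups and for Mybl2, which had the smallest. Capitals mark CCAAT, or a spelling of the cell cycle homology region, which was searched as TTTGAA, then with other letters as TTCGAA, and in an AT-rich form as TTTAAA. Both strands were searched, and in Mybl2 the capitals mark GGCGG on either strand.
Cdk1, chr10:69352903-69353042, minus strand: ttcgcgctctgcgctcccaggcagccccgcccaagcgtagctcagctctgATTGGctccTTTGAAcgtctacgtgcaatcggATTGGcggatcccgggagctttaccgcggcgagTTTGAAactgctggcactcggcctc
Ccnb2, chr9:70421545-70421684, minus strand: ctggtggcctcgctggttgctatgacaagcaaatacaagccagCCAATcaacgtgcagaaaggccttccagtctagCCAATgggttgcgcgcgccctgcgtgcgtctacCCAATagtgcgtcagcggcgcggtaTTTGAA
Cdc20, chr4:118437334-118437473, minus strand: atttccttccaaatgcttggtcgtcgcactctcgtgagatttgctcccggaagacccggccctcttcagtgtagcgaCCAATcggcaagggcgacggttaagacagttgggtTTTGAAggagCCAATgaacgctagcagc
Mybl2, chr2:163054505-163054644, plus strand: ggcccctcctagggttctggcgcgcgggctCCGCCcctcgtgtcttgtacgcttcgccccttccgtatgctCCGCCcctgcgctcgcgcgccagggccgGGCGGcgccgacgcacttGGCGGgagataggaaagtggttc

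A CCAAT was found in 6 of the 7 members' windows, against 37.4% of all 32851 windows. The word TTTGAA stood in 5 of 7, against 17.9% of all windows. With all 3 spellings of the homology region counted together, 6 of 7 members had one, against 28.8% of windows, and the same 6 had a CCAAT as well, against 11.3%. Mybl2 was the member with neither. It held GGCGG instead, a word of E2F sites that was in all 7 members' windows and in 48.8% of all. In Ccnb2 there were 3 CCAAT words at bases -87, -54 and -21. TTTGAA began at base 5 after the start and also at base -167, with no CCAAT upstream of the latter in the window. Cdk1 had CCAAT, spelled on the other strand, at bases -208, -80 and -48 with TTTGAA at -71 and -15, and Cdc20 had CCAAT at -53 and -8 with TTTGAA at -18. In Plk1 and Aurka the TTTGAA began after the start, at bases 31 and 33, and Ccnb1 had TTTAAA at -42 and no TTTGAA. The forkhead word TGTTTA was in 1 member's window, that of Ccnb1, against 13.4% of all windows, and AACNG, a core of MYB sites, was in 6 of 7, against 80.3%. These words are short, their presence was not tested for binding, and start sites of RefSeq and GENCODE M21 differed by 4 to 84 bases in these genes.

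**Figure D1:**
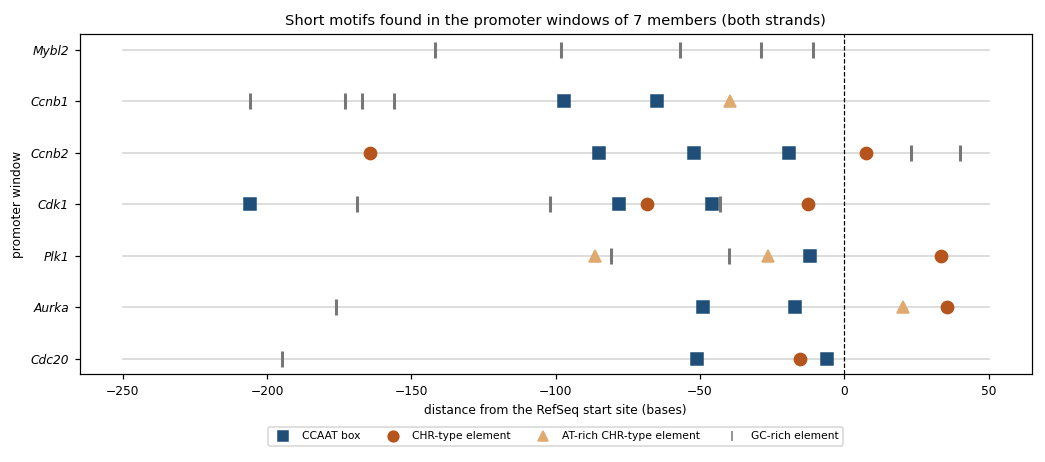
Positions of short motifs in the promoter windows of 7 members, with the distance from the RefSeq start site in bases on the x axis and 1 line per gene; squares are CCAAT boxes, circles the first spelling of the cell cycle homology region (TTTGAA), triangles its other spelling rich in A and T, and grey ticks the word of E2F sites. CCAAT boxes lie within 100 bases before the start in 6 genes and are missing in Mybl2.

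Libraries held between 22028507 and 32234146 counts, with a median of 29866486. Member counts were low in most libraries and ran from 3 for Aurkb, in the library labelled multipara untreated 2, to 1260 for Ccna2. Insulin transcripts took up 35.3% to 41.4% of counts without treatment and 13.2% to 20.7% after S-961, and the 8 beta cell markers were present in all libraries. Acinar markers summed to 139 to 270 CPM (counts per 1000000, scaled by the TMM method over all 11 libraries) without treatment and to 2400 to 17000 after S-961. Some libraries stood apart. The library labelled multipara untreated 1 held 290 CPM of lymphocyte markers, 712 of macrophage markers and 2390 of red cell markers, against at most 43.6, 172 and 710 in the others. The library labelled multipara S-961 4 was closer to virgin S-961 1 to 3, at a chi-square per gene of 9.78 to 45.56, than to its own group, at 58.18 to 95.87. The measure is taken on counts and, for a given fold difference, grows with the count, so abundant transcripts weigh most. Acinar markers summed to 5850 CPM in multipara S-961 4. They summed to 2400 to 9170 in virgin S-961 and to 11900 to 17000 in multipara S-961 1 to 3. The part of acinar RNA in this closeness was not tested. Chi-square values departed from the labels in other libraries too. Multipara S-961 1 was nearer virgin S-961 2, at 46.28, than any library of its own group, at 48.37 to 64.69. Virgin S-961 3 lay at 58.71 and 64.47 from its own group and at 45.56 from multipara S-961 4. Lrrc55 and Matn2 were also examined as a check of labels. Lrrc55 was at 24.9 and 22.8 CPM in the untreated multipara libraries and at 0.727 and 0.846 in the untreated virgin ones. After S-961 the order was the opposite, with 5.34 to 7.54 in the virgin and 0.32 to 4.43 in the multipara libraries. Matn2 was likewise higher in the untreated multipara and in the S-961 virgin libraries. Multipara S-961 4 lay nearest the virgin values, with Lrrc55 at 4.43 against 0.596, 0.32 and 1.95 in multipara S-961 1 to 3. Matn2 was at 115 in that library, against 41.7, 59.2 and 27 in multipara S-961 1 to 3 and 132 to 148 in virgin S-961. All directions between parity groups given here are therefore those of the labels. Whether the virgin and multipara labels of the S-961 libraries are right, as groups or for multipara S-961 4 alone, was not tested. If the labels were exchanged as a group, every direction between the S-961 groups would turn. The responses to S-961 within each label pair treated with untreated libraries by label. These responses and the interaction would then change as well.

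The clearest pattern was in the S-961 libraries, with a direction that rests on the labels. In multipara S-961 1, 2 and 3 (all names are those of the labels) every one of the 10 members was above all virgin S-961 libraries, while multipara S-961 4 lay at the virgin level. Divided by the virgin S-961 mean, the median member was at 17.9 times in multipara S-961 1, at 14.2 in 2, at 7.42 in 3 and at 0.913 in 4. The summed level of the members was 160, 162 and 71.6 CPM in the first 3 libraries, 10.9 in the fourth, and 12.2, 15.1 and 10.2 in virgin S-961 1 to 3. In bulk RNA, more dividing cells and more of these transcripts per cell cannot be told apart.

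**Figure D2:**
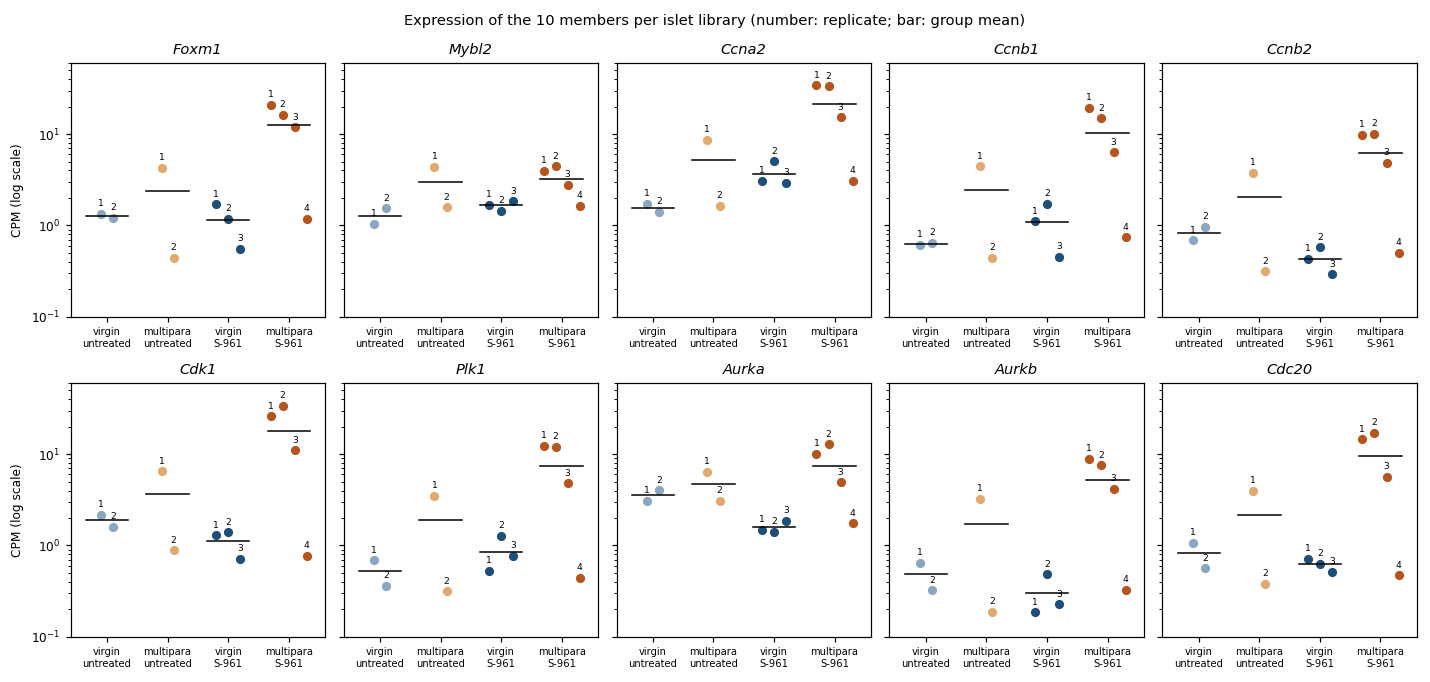
CPM on a log scale for each member (panel) in each library (point, numbered by replicate) of the 4 groups, with the group mean as a bar. In every panel multipara S-961 1 to 3 lie above the virgin S-961 libraries and multipara S-961 4 lies among or near them; multipara untreated 1 lies above the other untreated libraries.

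Foxm1 encodes the forkhead factor itself. Its level was 1.70, 1.18 and 0.55 CPM in virgin S-961 1 to 3 and 20.8, 16.4, 11.9 and 1.18 CPM in multipara S-961 1 to 4. Without treatment it was 1.34 and 1.21 CPM in the virgin and 4.29 and 0.441 CPM in the multipara libraries. The untreated multipara pair thus held both the highest and the lowest untreated value. Between the S-961 groups the log2 fold change was 3.48 ± 0.84 (SE, n = 4 and 3, edgeR adjusted p = 0.315). Without multipara S-961 4 it was 3.86 ± 0.39 (adjusted p = 0.00392 by edgeR). That library was the lowest of its group for every member, so leaving it out narrows the spread by construction, here and for the members below.

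Mybl2, the gene of B-MYB, had the smallest difference. It was at 1.67, 1.45 and 1.84 CPM in virgin S-961 and at 3.96, 4.45, 2.78 and 1.62 CPM in multipara S-961. The untreated values were 1.03 and 1.53 CPM in virgin and 4.38 and 1.58 CPM in multipara, so that its highest S-961 value was about the same as that of multipara untreated 1. Its log2 fold change between the S-961 groups was 0.97 ± 0.36 (edgeR adjusted p = 0.434). It was 1.19 ± 0.27 without multipara S-961 4 (edgeR adjusted p = 0.0631), so Mybl2 was the 1 member that passed the threshold in neither edgeR fit.

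The cyclins are the timed activators of the cell cycle kinases. Ccna2, the S and G2 phase cyclin, reached the highest CPM of any member, with 34.1, 33.4, 15.3 and 3.10 in multipara S-961 and 3.06, 5.04 and 2.94 in virgin S-961. It was at 1.72 and 1.41 CPM in the virgin and at 8.66 and 1.64 CPM in the multipara untreated libraries. Its log2 fold change between the S-961 groups was 2.56 ± 0.70 with all libraries and 2.93 ± 0.35 without multipara S-961 4. Ccnb1 encodes a B-type cyclin that, with CDK1, forms the kinase that starts mitosis. It was at 1.11, 1.72 and 0.453 CPM in virgin S-961 and at 19.3, 14.8, 6.30 and 0.739 CPM in multipara S-961, a log2 fold change of 3.25 ± 0.94. The untreated libraries held 0.612 and 0.645 CPM of Ccnb1 (virgin) and 4.42 and 0.441 CPM (multipara). Its relative Ccnb2 was at 0.433, 0.573 and 0.291 CPM in virgin S-961 and at 9.78, 10.006, 4.81 and 0.502 CPM in multipara S-961, a log2 fold change of 3.87 ± 0.89. The virgin untreated libraries held more Ccnb2 than any virgin S-961 library, with 0.688 and 0.967 CPM, and the multipara untreated ones held 3.75 and 0.315 CPM.

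Cdk1, the catalytic partner of these cyclins, was among the members with the widest range. It was at 1.30, 1.39 and 0.711 CPM in virgin S-961 and at 26.0, 33.7, 11.008 and 0.768 CPM in multipara S-961. Without treatment it was at 2.18 and 1.61 CPM in virgin and at 6.52 and 0.882 CPM in multipara. The log2 fold change between the S-961 groups was 3.99 ± 1.02, and 4.39 ± 0.45 without multipara S-961 4.

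Plk1, the Polo kinase that acts in mitotic entry and at the spindle poles, was at 0.525, 1.27 and 0.776 CPM in virgin S-961 and at 12.4, 12.012, 4.78 and 0.443 CPM in multipara S-961. Its untreated values were 0.688 and 0.363 CPM in virgin and 3.53 and 0.315 CPM in multipara. The highest and the lowest S-961 values both belonged to libraries labelled multipara. The log2 fold change of Plk1 between the S-961 groups was 3.12 ± 0.93. Aurka encodes the Aurora kinase of the centrosomes. It was at 1.48, 1.42 and 1.88 CPM in virgin S-961 and at 10.2, 12.8, 4.94 and 1.74 CPM in multipara S-961. Untreated islets held more Aurka than virgin S-961 islets, with 3.10 and 4.03 CPM in virgin and 6.43 and 3.09 CPM in multipara libraries. Its log2 fold change of 2.23 ± 0.60 between the S-961 groups was the second smallest of the 10. Aurkb, the Aurora kinase of the chromosomal passenger complex, had the lowest virgin S-961 values, 0.185, 0.483 and 0.226 CPM, and was at 8.86, 7.53, 4.17 and 0.325 CPM in multipara S-961. It was at 0.650 and 0.322 CPM in the virgin and at 3.26 and 0.189 CPM in the multipara untreated libraries. Its log2 fold change was the largest, at 4.13 ± 0.98.

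Cdc20 activates the anaphase-promoting complex (APC/C), which ends mitosis by marking cyclin B for destruction. It was at 0.711, 0.633 and 0.517 CPM in virgin S-961 and at 14.6, 17.2, 5.63 and 0.473 CPM in multipara S-961. Without treatment its level was 1.07 and 0.564 CPM in virgin and 3.97 and 0.378 CPM in multipara. The virgin S-961 libraries lay close together, and multipara S-961 4 was below all 3. The log2 fold change between the S-961 groups was 3.94 ± 0.99, and 4.34 ± 0.44 without multipara S-961 4.

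**Figure D3:**
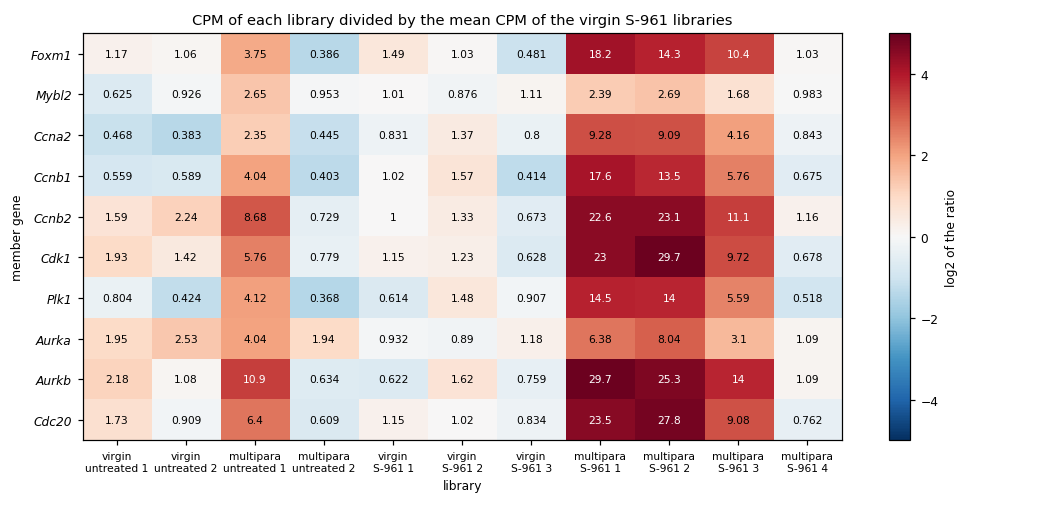
CPM of each member (row of the map) in each library (column) divided by the member's mean over the 3 virgin S-961 libraries, with the ratio printed in the cell and its log2 as the colour. Ratios reach 29.7 for Aurkb and Cdk1 in multipara S-961 1 and 2 and stay at or under 2.69 for Mybl2; in multipara S-961 4 they run from 0.518 to 1.16.

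With all 7 S-961 libraries, the comparison of multipara with virgin called 0 of the 10 members higher by edgeR at an adjusted p under 0.05, as it called 0% of the 16784 genes tested. All 10 members had an unadjusted p under 0.05, as had 1630 of all genes tested, and the adjusted p of the members ran from 0.315 to 0.434. limma voom with quality weights called 0 members, against 0.0298% of genes called higher, and DESeq2 called 6, against 2.13% of genes called higher. These were Foxm1, Ccnb2, Cdk1, Aurka, Aurkb and Cdc20. The median log2 fold change of the members was 3.36, and that of all genes tested was 0. Because of multipara S-961 4, 0 of 10 members had all multipara above all virgin libraries, against 5.23% of genes.

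Dixon's gap test was run on each member's log2 CPM in the multipara S-961 libraries. The gap is the distance from the lowest library to the next, as a share of the range. Multipara S-961 4 was lowest for every member, with gaps from 0.519 for Aurka to 0.802 for Foxm1. Every gap was under the critical value, so this test did not mark that library as an outlier. The fits without multipara S-961 4 leave out the library with the lowest members of its group, which narrows their spread by construction. The calls and adjusted p values of these fits are therefore no separate support for a difference. Without multipara S-961 4, edgeR called 9 of 10 members higher, against 2.69% of genes, and the median of the members was 3.75. All 10 were then above every virgin library, against 13.7% of genes. The 9 called members ran from 2.56 ± 0.36 for Aurka (edgeR adjusted p = 0.00967) to 4.52 ± 0.45 for Aurkb (edgeR adjusted p = 0.00392). DESeq2 and limma voom both called 10 of 10 in these libraries, against 6.03% and 8.81% of genes. Leaving out any other single S-961 library left 0 members called, with medians from 2.93 to 3.62.

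Markers of other cell types also differed between the S-961 libraries. The 16 acinar markers, all with counts and only Ptf1a at 0 in some library, summed to 17000, 15500, 11900 and 5850 CPM in multipara S-961 1 to 4 and to 7110, 9170 and 2400 CPM in virgin S-961 1 to 3. The mean log2 CPM of the 16 acinar markers (the acinar score) was also added to the edgeR fit of all 7 libraries. The median of the members was then 1.51 in place of 3.36. In that fit 0 members had an unadjusted p under 0.05, against 363 of the 16784 genes tested, and 0 genes were called. With the acinar score but without multipara S-961 4, the median was 2.90. All 10 members then had an unadjusted p under 0.05, as had 1743 of the 16590 genes tested. Of the members 0 were called, and of all genes 3 were called higher and 1 lower. The 5 alpha cell markers summed to 20700, 24300, 19300 and 16400 CPM in multipara S-961 1 to 4 and to 14100 to 15600 CPM in virgin S-961, so that they too were highest in the 3 libraries with high members. The 7 stromal markers followed the labels and not the members, with 157, 140, 285 and 129 CPM in multipara S-961 1 to 4 and 64.9 to 69.6 CPM in virgin S-961. The part of alpha and stromal cells in the result was not tested.

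**Figure D4:**
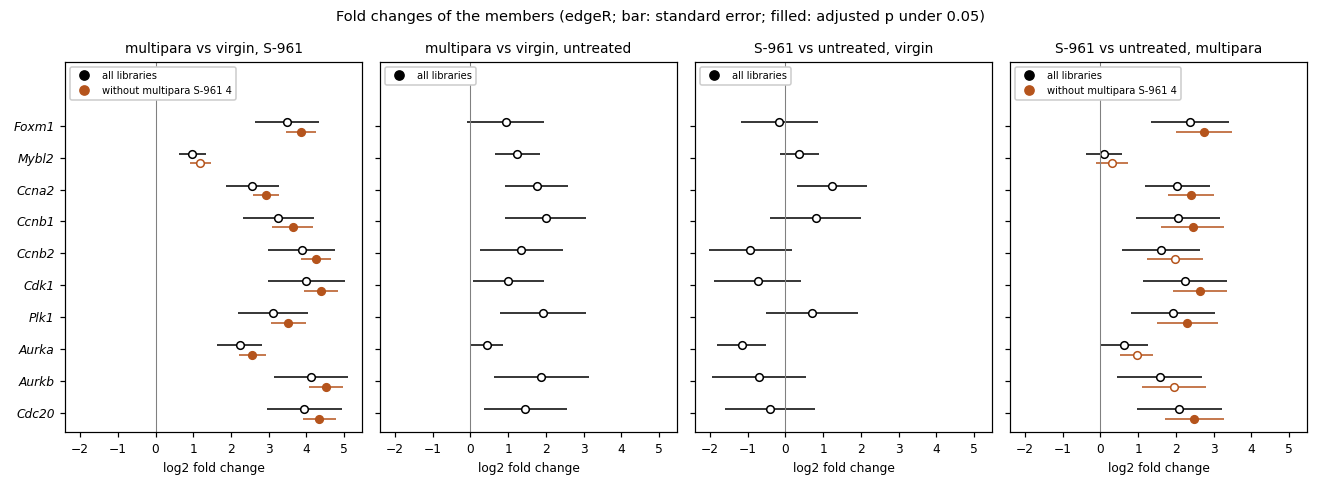
Log2 fold changes (x axis) of the 10 members in 4 comparisons (panels) by edgeR, with standard errors as bars and filled points where the adjusted p is under 0.05; orange points leave out the library labelled multipara S-961 4. Between the S-961 groups 9 of 10 points are filled without that library and 0 with it. That library held the lowest members of its group, so leaving it out favours calls.

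The untreated comparison of multipara with virgin rested on 2 libraries a group, and the 2 labelled multipara differed widely. All 10 members were higher in multipara untreated 1 than in either virgin library. In multipara untreated 2, all but Mybl2 and Ccna2 were below the mean of the virgin libraries, and the summed levels were 49.2 and 9.26 CPM against 13.1 and 12.7 CPM. edgeR called 0 of 10 members and 0% of the 15812 genes tested in either direction, with 0 members at an unadjusted p under 0.05. DESeq2 called 0 members, against 0.354% of genes in either direction, and had 1 at an unadjusted p under 0.05. Log2 fold changes ran from 0.44 ± 0.43 for Aurka to 1.99 ± 1.08 for Ccnb1, with a median of 1.40 against 0.02 over all genes. Mybl2 was the 1 member with both multipara libraries above both virgin ones, against 17.2% of genes. Without multipara untreated 1, which held the most lymphocyte, macrophage and red cell marker RNA, the median of the members was -0.94 and 8 of the 10 changed sign. Without multipara untreated 2, 9 of 10 were called higher, all but Aurka, against 8.81% of genes, and the lone library left in the group was assumed to vary like the virgin ones. The part of the blood cells in these values was not tested.

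Within the mice labelled virgin, the members did not move together under S-961. edgeR called 0 of 10, against 18.8% of genes called higher and 17.6% called lower, and 0 had an unadjusted p under 0.05; DESeq2 called 0, against 21.3% of genes higher and 18.5% lower, and limma voom called 0, against 29.5% and 29.6%. The members' median log2 fold change was -0.28 against -0.04 over all 17996 genes, from -1.16 ± 0.65 for Aurka to 1.23 ± 0.92 for Ccna2. Ccna2 was above in every S-961 library, against 32.8% of genes, and Ccnb2, Cdk1 and Aurka were below in every one, against 35.6%. A fit on these 5 libraries alone, with their smaller spread, called Ccna2 higher (1.25 ± 0.32, edgeR adjusted p = 0.0132) and Aurka lower (-1.14 ± 0.28, edgeR adjusted p = 0.00997), against 26.9% and 24.3% of genes.

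Within the mice labelled multipara, all 10 members had a positive log2 fold change under S-961, with a median of 1.98 against 0.03 over all genes. It ran from 0.10 ± 0.47 for Mybl2 to 2.38 ± 1.03 for Foxm1. edgeR called 0 of 10 at the adjusted threshold, against 18.2% of genes called higher, and Foxm1 and Ccna2 had an unadjusted p under 0.05. DESeq2 called 0, against 20.3% of genes, with 3 at an unadjusted p under 0.05. Without multipara S-961 4, edgeR called 6 (Foxm1, Ccna2, Ccnb1, Cdk1, Plk1 and Cdc20), against 18% of genes. With scaling by library totals alone, which shifted the median of all genes by 0.61, 2 members were called, against 43.3% of genes. Without multipara untreated 1 the median was 4.43, with 0 called, and without multipara untreated 2 it was 1.15. The acinar sums did not overlap between treated and untreated libraries, so acinar RNA and S-961 cannot be told apart in these comparisons.

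The difference between the responses to S-961 in mice labelled multipara and in mice labelled virgin was tested as an interaction. It rests on the labels of the S-961 libraries, as do the 2 responses. edgeR called 0 of 10 members and 0% of genes, with 0 members at an unadjusted p under 0.05, and DESeq2 called 0 members, against 0.339% of genes higher, with 1 at an unadjusted p under 0.05. The estimates ran from -0.27 ± 0.68 for Mybl2 to 2.98 ± 1.57 for Cdk1, with a median of 2.03. Without multipara untreated 1 the median was 4.41. These comparisons share libraries, so that their values stand side by side and are not independent.

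The members were not equal in make-up across libraries. Per kilobase of exon, Ccna2 led in virgin S-961 with 0.901 ± 0.288 CPM per kilobase (SD, n = 3), followed by Aurka with 0.629 ± 0.0979, and their ranges overlapped. Aurkb was lowest at 0.101 ± 0.0547. In multipara S-961 the order was Ccna2 (5.27 ± 3.69, SD, n = 4), Cdc20 (5.08 ± 4.17) and Ccnb2 (4.10 ± 2.96), and Mybl2 was lowest at 0.691 ± 0.273. The leading 3 lay inside each other's spread, and the means pool libraries of unlike level. Mybl2 was lowest in each of multipara S-961 1 to 3, at 0.600 to 0.961 CPM per kilobase, while in multipara S-961 4 it was at 0.351, with only Ccna2 and Aurka higher. In virgin untreated islets Aurka led at 1.41 ± 0.26 (SD, n = 2), above every other member in both libraries. Of the summed CPM per kilobase of all members, Aurka took 8.11% to 9.88% in multipara S-961 1 to 3 and 12.6% to 41.5% in the other 8 libraries. Mybl2 took 1.72% to 2.75% in those 3 libraries and 5.25% to 12.8% in the others. Both shares of multipara S-961 4, 21.3% for Aurka and 10.9% for Mybl2, fell in the range of the other libraries and not of its own group.

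Across the 11 libraries the log2 CPM of the members varied together, with Pearson r from 0.73 to 0.99 and a median of 0.94 over the 45 pairs. Cdk1 and Cdc20 were the closest pair at 0.99. Aurka and Mybl2 had the lowest r with the mean of the others, 0.86 and 0.87, and without the multipara S-961 libraries Aurka was at 0.55. The libraries differ in depth and in cell make-up, and these r values are descriptions. Of 17986 other genes, the 10 most like the mean of the members were Top2a (r = 0.994, n = 11), Kif20a (0.992), Gtse1 (0.989), Cenpe (0.987), Kif11 (0.987), Ercc6l (0.986), Smc4 (0.986), Nek2 (0.983), Ncaph (0.983) and Espl1 (0.982). Top2a encodes the topoisomerase that untangles chromosomes, Kif20a, Cenpe and Kif11 encode mitotic motors, Smc4 and Ncaph encode condensin subunits, and Espl1 encodes separase.

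Genes that work with the members were counted in 7 partner lists. With all 7 S-961 libraries edgeR called 0 genes of any list between multipara and virgin, and the list medians were 3.12 for other FoxM1 and B-MYB targets, 3.50 for Aurora and Polo partners, 2.45 for the spindle checkpoint, 0.72 for the CDK1 switch, 0.33 for paralogs, 0.14 for MuvB and DREAM genes and -0.03 for the APC/C. The calls and values that follow leave out multipara S-961 4, the library with low members, where 2.69% of genes were called higher. They were looked at after the full comparison had called none, and the lists were not tested against each other. Leaving out a library because its members are low also favours calls in genes that vary with the members. Top2a, Kif20a and Cenpe of the target list correlated with the members' mean at r = 0.994, 0.992 and 0.987. The list calls are therefore no separate support for the result on the members. Among 12 other targets of FoxM1 and B-MYB, 12 of 12 were called higher, with a median of 3.51. They ran from 1.35 ± 0.22 for Skp2, a ubiquitin ligase subunit, to 4.57 ± 0.36 for Hmmr, a spindle protein. Of 9 Aurora and Polo partners 8 were called higher, with a median of 3.88. Melk, a mitotic kinase, was at 5.34 ± 0.54, and Bora, which helps Aurora A switch on Polo kinase, was at 0.06 ± 0.25. The spindle checkpoint holds anaphase until chromosomes are attached, and 4 of its 6 genes were called higher. Bub1 was at 4.82 ± 0.33 and Bub3 at 0.01 ± 0.20.

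Regulators of the CDK1 switch were mixed, with 5 of 10 called higher and a median of 0.85. Cdc25c, a phosphatase that activates CDK1, was at 4.73 ± 0.66, and Cdc25a, its G1 phase relative, at -0.14 ± 0.25. The APC/C list, which Cdc20 activates, had 2 of 18 called higher and a median of -0.02. These were the ubiquitin-conjugating enzyme gene Ube2c (4.37 ± 0.47) and the inhibitor gene Fbxo5 (2.39 ± 0.32), and the other 16, among them Anapc4 at -0.20 ± 0.17, ran from -0.20 to 0.23. Of 11 MuvB and DREAM genes 2 were called higher, with a median of 0.19. Lin9, a MuvB subunit, was at 1.77 ± 0.24, Rbl1, which encodes the pocket protein p107, at 1.02 ± 0.20, and E2f4, the DREAM E2F gene, at -0.31 ± 0.12. Only 5 of 10 paralogs of the members passed the filter on low counts. Of these 1 was called higher, Mybl1, which encodes A-MYB, at 2.98 ± 0.25, and Plk3 was lowest at -0.20 ± 0.14. Myb, Ccna1, Ccnb3, Aurkc and Cdc20b did not pass the filter.

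Under S-961 the paralogs Plk2 and Plk3, Polo-like kinases of stress and neuronal signalling, were called higher in mice of both labels. Plk3 was at 1.91 (edgeR adjusted p = 7.52e-05) in virgin and at 1.68 (edgeR adjusted p = 7.88e-05) in multipara mice, and Plk2 was at 1.24 and 1.37. In the APC/C list 2 genes were called higher and 6 lower in virgin mice, and 2 higher and 5 lower in multipara mice, against 18.8% and 17.6%, and 18.2% and 19.4%, of all genes. Cdc27 was at 1.02 and 0.83, and Anapc13 at -1.92 and -2.16. Plk1 itself was not called in either, at 0.70 ± 1.21 and 1.92 ± 1.12.

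**Figure D5:**
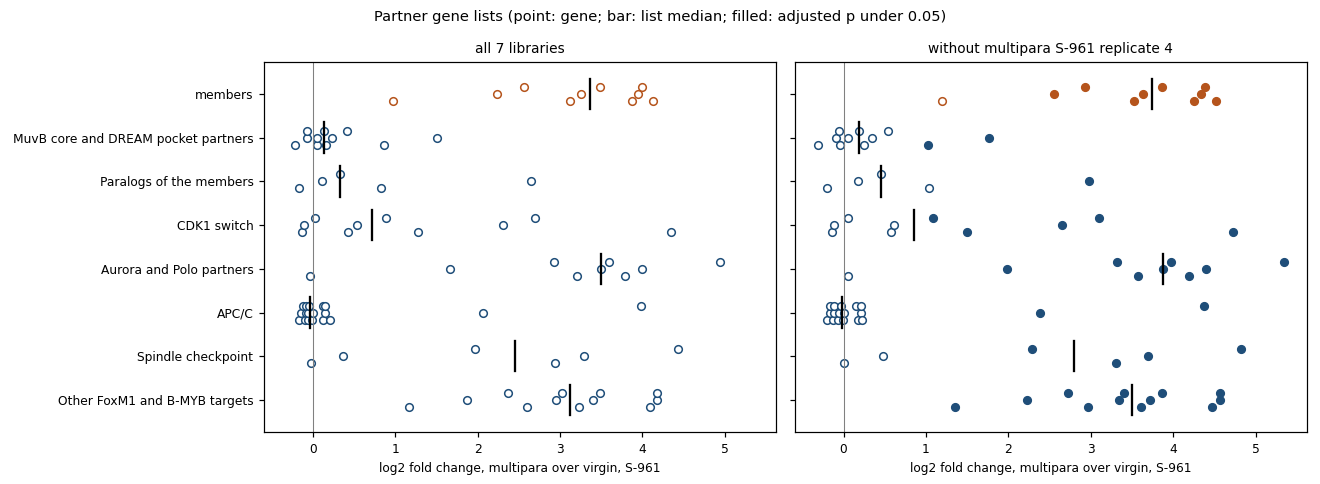
Log2 fold change (x axis) between the multipara and virgin S-961 groups for the members and 7 partner lists (lines), with 1 point per gene, the list median as a bar and filled points at an adjusted p under 0.05; the right panel leaves out the library labelled multipara S-961 4. The medians of the MuvB and DREAM and APC/C lists lie at 0.19 and -0.02 in the right panel, and that of the other FoxM1 and B-MYB targets at 3.51. That library was left out for its low members, so the list calls of the right panel are no separate support.

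Some values can be shared with other genes. Ccnb2 has a pseudogene, Ccnb2-ps, which held 57 to 104 counts in every library, while Ccnb2 ran from 5 to 361. The deposited values of Ccnb2 were whole in all 11 libraries, and a division of reads between the 2 was not tested. Ccnb1-ps held at most 1 count. Ccna2 overlaps Exosc9 on the other strand (575 to 1037 counts), and its values were not whole in all 11 libraries. Cdc20 overlaps Elovl1 on the other strand (321 to 739 counts), and its values were whole in all 11 libraries. The strand setting of the counting is not given in the sources used here, so opposite-strand reads cannot be told apart from those of Ccna2 and Cdc20. In GRCm38 the members lie on 9 chromosomes, with only Mybl2 (chr2:163054687-163084688) and Aurka (chr2:172356190-172370535) on the same one.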

How the data were processed

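Islet RNA was poly(A)-selected and made into strand-specific libraries from samples with a RIN above 8. The authors deposited an expected count (estimated count) per gene and library, without normalization. The submitters' processing notes name STAR, RSEM, GRCm38 and mm10, with versions not given in the sources used here. Expected counts were rounded here. Coordinates came from GENCODE M21 (GRCm38) and promoter windows from RefSeq (GRCm38.p6).

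Genes were tested in R 4.3.3 by edgeR 4.0.16 after TMM scaling and filterByExpr (minimum count 10, minimum total 15), the quasi-likelihood F-test and Benjamini-Hochberg adjustment over all genes tested, with a threshold of 0.05. Parity groups were compared on their own libraries, and S-961 responses and the interaction on all 11. CPM values used 1 TMM scaling over 11 libraries, and correlations used log2 CPM with a prior count of 2. The SE is the fold change divided by the square root of F. Alternatives used DESeq2 1.42.0, limma 3.58.1 voom, other scalings, no filter, the acinar score as a covariate, a replicate block and leaving out each library. DESeq2, voom and the acinar score without multipara S-961 4 were added after seeing the data. On simulated counts with 200 genes changed 4-fold, edgeR recovered 155 in the S-961 design, with 13 false calls over 16784 genes. DESeq2 recovered 176 there, with 59 false calls among 235 calls. In the untreated design edgeR recovered 112 and DESeq2 140, with 17 and 57 false calls. Each gene was drawn around 1 mean per group, so the simulation held no library set apart like multipara S-961 4.

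Members, lists and markers were chosen with earlier results of these data known. Named were all members, the genes with the highest and lowest fold change of each list, the 10 genes most like the members' mean in log2 CPM, and Lrrc55, Matn2 and Insr as checks, and others were named after their values were seen. Insr was at 37.2 to 70.0 CPM in all libraries. Depth ran from 22028507 to 32234146 counts, and the biological coefficient of variation was 0.266 to 0.293. The S-961 libraries equal in number the mice of each group. For the untreated libraries the sources used here give no number of mice, and their spread may be technical. Figures were made with matplotlib 3.10.9.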

Additional observations from a re-analysis of the deposited data

How the results depend on the processing

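Between the S-961 groups the members called higher ranged from 0 to 9 when 1 library was left out, with 9 only without multipara S-961 4. DESeq2 called 6 with all libraries, and without multipara S-961 4 DESeq2 and voom called 10. Leaving out that library, the lowest of its group for every member, favours calls. The acinar score as a covariate gave a median of 1.51. All 10 log2 fold changes of this comparison stayed positive in the 18 alternatives run, with a median between 1.51 and 3.87.

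Whether replicate numbers pair the libraries could not be settled. The deviations of same-numbered libraries correlated at 0.01 to 0.09 in the S-961 comparison, against -0.08 to 0.07 for unlike numbers. The correlation was 0.28 in the untreated comparison and -0.09 to 0.12 across treatment. With 2 libraries in a group their deviations mirror each other, so both untreated pairs give the same value. These values cannot tell whether same-numbered libraries share a batch or a litter. With the replicate block, 9 members were called between the S-961 groups (1.84% of genes higher), where the block drops the contrast with multipara S-961 4, and 6 under S-961 in multipara mice (15.8% of genes higher). The block gave Foxm1 0.03 and Cdc20 0.02 under S-961 in virgin mice, which were negative without it.

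In the untreated comparison, leaving out 1 library moved the median from -0.94 to 2.24 and the members called from 0 to 9. The log2 fold change ran from -1.54 to 1.76 for Foxm1, from -0.53 to 2.82 for Ccnb1, from -1.40 to 2.19 for Ccnb2 and from -1.12 to 1.79 for Cdk1. It ran from -0.75 to 2.74 for Plk1, from -0.23 to 0.87 for Aurka, from -1.36 to 2.74 for Aurkb and from -1.13 to 2.28 for Cdc20. The lowest values all came without multipara untreated 1 and the highest without multipara untreated 2.

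Under S-961 in virgin mice, leaving out 1 library moved Foxm1 from -0.56 to 0.17 and Cdc20 from -0.78 to 0.14. Scaling by library totals gave 0.32 and 0.07 for them. That scaling shifted the median of all genes by 0.43 in virgin and 0.61 in multipara mice, and lowered the mean summed CPM of the virgin untreated libraries to 10.3. The fit on the 2 virgin groups alone called 1 member higher and 1 lower. In multipara mice the members called ranged from 0 to 6 and the median from 1.15 to 4.43 when 1 library was left out, with Mybl2 from -0.44 to 1.02. Scaling by library totals and the absence of a filter each called 2, against 43.3% and 11.9% of genes. The median of the interaction ranged from 1.38 to 4.41, and its Mybl2 value from -0.81 to 0.66.

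The summed acinar CPM did not overlap between treated and untreated libraries. With the acinar score as a covariate, the median under S-961 was -6.61 in virgin mice. Mybl2 was at -1.26, Ccna2 at -3.52, Ccnb1 at -8.04 and Plk1 at -4.33. In multipara mice the median was -4.82, with Foxm1 at -5.32, Mybl2 at -1.79, Ccna2 at -3.34, Ccnb1 at -7.73, Ccnb2 at -6.36, Cdk1 at -5.81, Plk1 at -3.77, Aurka at -2.52, Aurkb at -5.45 and Cdc20 at -4.32. By construction these values extrapolate beyond the libraries.

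Counts as low as 3 in the low libraries limit the precision of their ratios, and groups of 2 limit every untreated comparison. No other call changed with the block.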
